A study of Rattus norvegicus with 53 samples.

Results

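The insulin-like growth factor (IGF) system was measured here through 9 genes: the ligands Igf1 and Igf2, the receptor Igf2r, and the binding proteins Igfbp2, Igfbp3, Igfbp4, Igfbp5, Igfbp6 and Igfbp7. They are 9 of the 14217 genes that had a single symbol in the annotation of the array, and 21 of its 31042 probe sets belonged to them. Each gene was read at its brightest probe set, by the mean over all arrays, whatever its response to insulin. The remaining 12 probe sets are given beside the gene they belong to.

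L6, a single line of rat skeletal muscle cells, was differentiated into myotubes in low serum and kept without serum for 8 hours, in both cultures alike. Medium with 20 nM insulin or without insulin was then given, plates were scraped every 20 min, and 3 consecutive samples of a culture were pooled into each hourly array from hour 1 to hour 8. Time 0 arrays were taken from both cultures before insulin. The experiment was done on 3 different days, which the letters a, b and c of the labels are taken to name. It gave 53 arrays in 18 groups of culture and hour. Each group had 3 arrays except the insulin culture at hour 3, which had only letters b and c. The cells are those of 1 line, so the letters are repeats of a culture and not of an animal. In the fits over all arrays the p-values measure the spread of arrays within groups. Arrays of a letter at different hours count there as separate repeats, although they share a letter. Fits with 1 value per letter, which do not count them so, are named as such.

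IGF1 and IGF2 are secreted peptides that act on muscle cells through the IGF1 receptor, and IGF2 in particular is made by myoblasts as they fuse and promotes their differentiation. IGF2R, which is also the cation-independent mannose 6-phosphate receptor, takes up IGF2 and delivers it to lysosomes without a growth signal of its own. The binding proteins hold the ligands outside the cell, some prolonging their action and some keeping them from the receptor. Those that hold IGFs with high affinity bind insulin itself hardly or not at all.

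The levels are log2 values from RMA, so 1 unit is a factor of 2, and a level of 1 gene cannot be set against that of another. The array medians lay between 6.3 and 6.37. Of the 11 myotube markers listed, 10 had a probe set and all 10 were bright enough to be tested, among them Acta1, skeletal alpha actin, with a mean level of 13.48. The 4 markers of proliferating cells were also measured (Mki67 at 9.96), as were 5 of fibroblasts. The markers of adipocytes and endothelial cells that had a probe set lay under the lowest level tested, 5.04, and the endothelial marker Cdh5 had none. Of the macrophage markers, Csf1r lay just above that level, at 5.11, while Adgre1 and Ptprc lay under it. In whole cultures, fewer cells of a type and less RNA per cell cannot be told apart.

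Both time courses held arrays that stood apart, and the IGF genes were among those that showed it. The insulin culture of letter a at time 0 correlated with the other arrays of its letter at a mean of 0.11, after each probe set was centred, against 0.43 to 0.61 for each of the other arrays of letter a. It was the only array whose closest array came from another letter. On this array Igf1 read 6.45 and Igf2 10.63, whereas the control culture of the same letter and time read 7.65 and 12.25. Igf2r read 10.18 there, against 11.33 in the control culture. The second group was the control culture of letter b, in which Igf2 lay between 11.57 and 11.70 from time 0 to hour 5 and between 10.90 and 10.97 from hour 6 on. Igfbp4 stepped there from 10.56 to 10.70 down to 9.78 to 9.96, and Igfbp7 from 12.33 to 12.46 down to 11.93 to 11.97. Igf1 went up in the same culture, from 6.38 to 6.65 over time 0 to hour 5 to between 6.93 and 7.23 from hour 6 on, and Igf2r from 10.27 to 10.39 up to 10.62 to 10.69. Igfbp3 moved less, from 5.38 to 5.52 down to 5.21 to 5.37. In the insulin culture of letter b the same hours overlapped in Igf1, Igf2, Igfbp3, Igfbp4 and Igfbp7, while Igf2r went from 10.30 to 10.47 up to 10.48 to 10.83. Some of these shifts were not particular to letter b. In the control culture of letter c Igf2r went from 10.22 to 10.57 up to 10.71 to 10.79. Igfbp4 went there from 10.08 to 10.27 down to 9.88 to 10.04, and Igf2 from 11.13 to 11.21 down to 11.03 to 11.08. Across all tested probe sets the difference between the cultures of letter b at time 0, before insulin, had a correlation of 0.77 with their mean difference from hour 1 to hour 5. For letter a that correlation was 0.03 and for letter c it was 0.15.

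**Figure D1:**
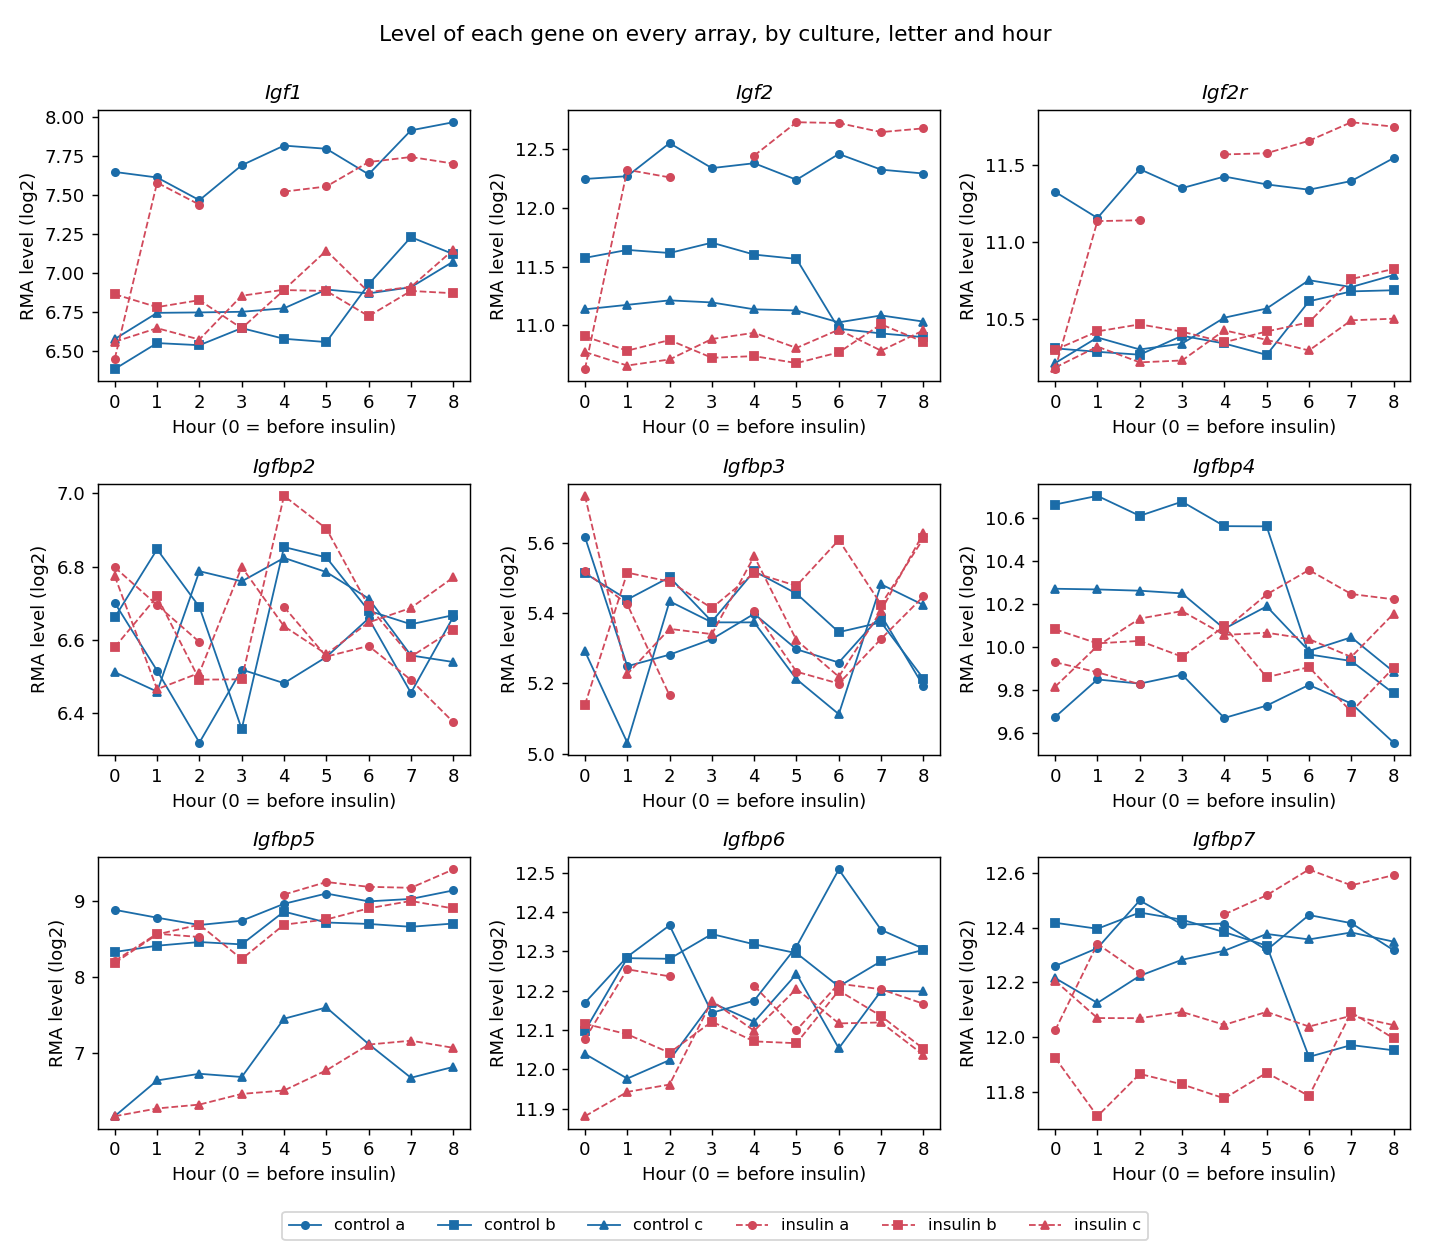
RMA level (log2) of each of the 9 genes on every array, by hour after insulin (time 0 is before it), with control cultures in blue and solid lines, insulin cultures in red and broken lines, and circles, squares and triangles for letters a, b and c. Lines of Igf1, Igf2, Igf2r and Igfbp5 lay apart by letter, the insulin array of letter a at time 0 lay low in Igf1, Igf2 and Igf2r, and the control line of letter b stepped down between hours 5 and 6 in Igf2, Igfbp4 and Igfbp7.

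Averaged over hours 1 to 8, Igfbp6 was the only one of the 9 genes that passed the test, and it was lower with insulin. None was higher. Of all tested probe sets, the 70.7% of the array with the highest mean, 6.63% were called lower and 5.53% higher in the same fit, 12.2% in either direction. The share of 1 gene in 9 was therefore near that of the array as a whole. The test was limma's moderated test of the insulin minus control difference of group means, with p-values adjusted by Benjamini-Hochberg over all tested probe sets and a threshold of 0.05.

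Igfbp6 encodes a binding protein that prefers IGF2 over IGF1 and is mostly regarded as a brake on IGF2. In the control culture its level over the 24 arrays of hours 1 to 8 ranged from 11.98 to 12.51 with a median of 12.28. In the 23 insulin arrays it ranged from 11.94 to 12.25 with a median of 12.12. The ranges overlapped widely, yet the difference pointed the same way in most pairs of arrays of the same letter and hour, 20 of 23 below 0. The fitted mean difference was -0.12 (SE 0.03, adjusted p = 0.0221), a factor of 1.08. The letters a, b and c gave -0.13, -0.19 and -0.04, so letter b carried the largest part.

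The separation of Igfbp6 was clearest at hours 5 and 8. At hour 5 the control arrays read 12.31, 12.30 and 12.24 for letters a, b and c and the insulin arrays 12.10, 12.07 and 12.20. At hour 8 the control arrays read 12.31, 12.30 and 12.20 and the insulin arrays 12.17, 12.05 and 12.04. All 3 insulin arrays lay below all 3 control arrays at both hours, as 8.94% of probe sets did in either direction at hour 5 and 11.1% at hour 8. At the other hours from 1 to 8 the groups overlapped.

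A second probe set of Igfbp6 gave a difference of -0.14 (SE 0.04, adjusted p = 0.0197). In the later window, hours 5 to 8, the first probe set gave -0.14 (SE 0.05, adjusted p = 0.0672), which missed the threshold, as 0 of the 9 genes passed in that window against 9.35% of all probe sets. Before insulin, at time 0, Igfbp6 already read 12.08, 12.12 and 11.88 in the insulin culture and 12.17, 12.10 and 12.04 in the control culture, a difference of -0.08 (SE 0.10, adjusted p = 1.00), or -0.10 (SE 0.11) without the letter a array that stood apart. Relative to that start the mean over hours 1 to 8 was -0.04 (SE 0.10, 95% interval -0.25 to 0.17), which did not pass, and without that array it was -0.01 (SE 0.11). No probe set passed that comparison, although 511 had an unadjusted p under 0.05 in limma.

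The letters pair the arrays if each is a day on which both cultures were run, as was taken here. With letter as a block the difference of Igfbp6 was -0.11 (adjusted p = 0.00111) over hours 1 to 8 and -0.14 (adjusted p = 0.00412) over hours 5 to 8. In that fit 15.2% of probe sets were lower over hours 1 to 8 and 12.5% over hours 5 to 8. The call over hours 1 to 8 was lost with 1 difference per letter tested against 0 (-0.12, adjusted p = 0.30, where 0.692% of probe sets passed). It also rested on letter b. Without letter b the difference was -0.08 (adjusted p = 0.559), and 2.14% of probe sets were lower. Without only its arrays of time 0 to hour 5 it was -0.08 (adjusted p = 0.418), where 2.85% were lower, or -0.07 (adjusted p = 0.136) with the block, where 9.62% of probe sets were lower. Over hours 5 to 8 Igfbp6 was called only where a block was fitted or letter c was left out (-0.18, adjusted p = 0.0289, with 3.6% of probe sets lower). Without letter b up to hour 5, and with the block, the difference was -0.13 (adjusted p = 0.0143), with 12.9% of probe sets lower. Without those arrays and the block it was -0.13 (adjusted p = 0.193), and with 1 difference per letter tested against 0 it was -0.14 (adjusted p = 0.303), where 2.96% of probe sets passed.

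The 250 bases before the start of Igfbp6 are shown because it was the gene called, and those of Igfbp7 because its adjusted p came next. They are taken from RefSeq on GRCr8 and read 5′ to 3′ along the gene. Igfbp6 lies at chr7:135154669-135154918 on the plus strand and Igfbp7 at chr14:31091486-31091735 on the plus strand. Capitals mark a match to the forkhead (FOXO) motif TGTTTAC, searched on both strands.

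Igfbp6: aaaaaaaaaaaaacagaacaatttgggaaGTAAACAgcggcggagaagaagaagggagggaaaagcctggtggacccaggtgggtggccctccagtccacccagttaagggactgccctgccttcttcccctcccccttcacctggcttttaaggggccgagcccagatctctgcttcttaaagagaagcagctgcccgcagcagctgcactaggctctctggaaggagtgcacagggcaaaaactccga
Igfbp7: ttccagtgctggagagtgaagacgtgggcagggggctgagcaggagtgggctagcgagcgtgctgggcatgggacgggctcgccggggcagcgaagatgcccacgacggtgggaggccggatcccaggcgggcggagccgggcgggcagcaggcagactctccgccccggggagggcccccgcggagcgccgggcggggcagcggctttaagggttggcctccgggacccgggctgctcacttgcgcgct

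The window of Igfbp6 held the motif once, on the minus strand, beginning 221 bases before the start, and no other of the 9 genes held it in this window. Of 33469 rat promoters of the same length 3.21% held it. The forkhead factors are turned off by insulin, but a match of letters is neither a site nor a cause, and 1 match among 10 windows, of which Igf2 has 2, is a description. CACGTG, the E-box that reads the same on both strands, was found 125 and 85 bases before the start of Igf2r and 140 bases before that of Igfbp2, and in 5.59% of all promoters. TATTTT on either strand was in none of the 9 and in 18.7% of all. The Igfbp7 window was rich in G and C, 74.4% against 54.8% for Igfbp6 and a median of 51.2% over all promoters.

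Igfbp7 encodes a secreted protein that resembles the binding proteins but holds IGFs with low affinity. Its level ranged from 11.93 to 12.50 (median 12.35) in the control arrays of hours 1 to 8 and from 11.71 to 12.61 (median 12.07) in the insulin arrays. The mean difference was -0.20 (SE 0.07, adjusted p = 0.0517), just short of a call, and the letters did not point the same way, with means of 0.08, -0.37 and -0.24 for a, b and c. In letter b the difference was -0.49 at time 0, -0.59 on average over hours 1 to 5, and 0.01 over hours 6 to 8, after the control level had stepped down. Without letter b up to hour 5 the fitted difference of Igfbp7 was -0.09 (SE 0.08, adjusted p = 0.637). In letter c it was -0.01 at time 0 and -0.31 over hours 6 to 8, and all 8 of its hourly values were below 0. In letter a it was above 0 at 6 of 7 hours.

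Igf2, the ligand that muscle cells make as they differentiate, gave the largest mean difference of the 9 genes with the second largest error. Its level ranged from 10.90 to 12.55 (median 11.58) in the control arrays and from 10.66 to 12.73 (median 10.88) in the insulin arrays of hours 1 to 8. The difference was -0.29 (SE 0.22, adjusted p = 0.434), and by letter it was 0.18, -0.56 and -0.29. Without letter b up to hour 5 it was -0.17 (SE 0.30, adjusted p = 0.849). At hour 3 the control arrays of letters a, b and c read 12.34, 11.70 and 11.20 and the insulin arrays of letters b and c 10.72 and 10.88, without overlap. The high letter a has no insulin array at that hour, and 22.9% of all probe sets did not overlap there. At time 0 the 3 insulin arrays, at 10.63, 10.91 and 10.77, also lay below the 3 control arrays, at 12.25, 11.57 and 11.14, as 5.01% of probe sets did not overlap then. The mean difference in Igf2 before insulin was -0.88 (SE 0.62), or -0.81 (SE 0.70) without the letter a array that stood apart, and neither passed. No probe set on the array passed limma's test at time 0, although 205 had an unadjusted p under 0.05.

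With letter as a block, 3 of the 9 genes were lower over hours 1 to 8, Igfbp6 with Igf2 (-0.24, adjusted p = 0.0426) and Igfbp7 (-0.19, adjusted p = 0.00476), while 15.2% of all probe sets were lower. With each pair of the same letter and hour as the block the same 3 genes were called, Igf2 at -0.26 (adjusted p = 0.0269) and Igfbp7 at -0.19 (adjusted p = 0.0118), against 14.5% of all probe sets. Without the arrays of letter b from time 0 to hour 5, and with the block, none of the 9 passed, and the differences were -0.09 (adjusted p = 0.574) for Igf2 and -0.08 (adjusted p = 0.243) for Igfbp7. Relative to time 0 neither gene passed with the block, at 0.64 (SE 0.27, adjusted p = 0.584) for Igf2 and 0.06 (SE 0.15) for Igfbp7. Neither passed without a block, at 0.59 (SE 0.66) for Igf2 and 0.05 (SE 0.20) for Igfbp7. Without a block and without the letter a array at time 0 these were 0.52 (SE 0.73) and 0.04 (SE 0.23). Igf2 had 2 dimmer tested probe sets, whose differences were 0.04 (SE 0.04) and -0.02 (SE 0.04). H19, the noncoding RNA expressed from the same imprinted locus, differed by -0.19 (SE 0.16, adjusted p = 0.501).

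**Figure D2:**
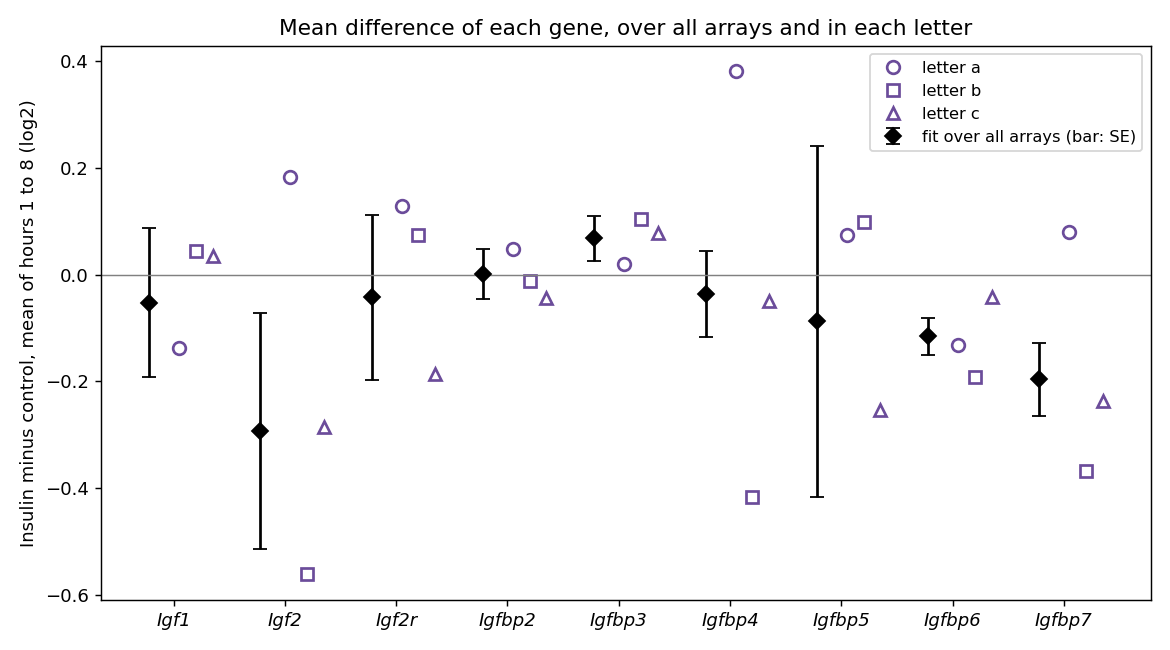
Insulin minus control difference in level (log2), averaged over hours 1 to 8, for each gene: black diamonds give the fit over all arrays with its SE as a bar, and open circles, squares and triangles the mean of the hourly differences in letters a, b and c. All 3 letters lay below 0 for Igfbp6, from -0.19 to -0.04, whereas Igfbp4 ran from -0.42 in letter b to 0.38 in letter a.

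Igf1, the ligand that growth hormone induces and that muscle also makes locally, ranged from 6.53 to 7.97 (median 6.92) in control arrays and from 6.57 to 7.74 (median 6.89) in insulin arrays. The groups overlapped at every hour. The mean difference was -0.05 (SE 0.14, 95% interval -0.34 to 0.23), and a second tested probe set gave -0.05 (SE 0.17). Igf2r differed by -0.04 (SE 0.16, 95% interval -0.36 to 0.27), with 12 pairs above 0 and 11 below, and its second probe set by -0.08 (SE 0.15). Its groups overlapped at every hour, although the 8 differences of letter c were all below 0 and 7 of the 8 in letter b were above. These errors are those of the fit without a block. With letter as a block the mean difference was -0.02 (SE 0.06) for Igf1 and -0.005 (SE 0.05) for Igf2r.

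Among the binding proteins that hold both ligands with high affinity, Igfbp5, the one that muscle cells secrete as they differentiate, had the widest error without a block. It ranged from 6.65 to 9.14 in control arrays and from 6.28 to 9.41 in insulin arrays. Its difference without a block, -0.09 (SE 0.33, 95% interval -0.75 to 0.58), leaves room for changes of either sign. With letter as a block it was -0.04 (SE 0.06, adjusted p = 0.661), and letters a, b and c gave 0.07, 0.10 and -0.25. Its 4 other tested probe sets gave -0.06 to 0.07 without a block, none of which passed. Igfbp2, a carrier of both ligands with some preference for IGF2, had a much narrower error without a block, with a difference of 0.0011 (SE 0.05, 95% interval -0.09 to 0.09) and letter means from -0.04 to 0.05. Igfbp3, the main carrier of IGFs in blood, was dim here with a mean of 5.38, close to the lowest level tested, and differed by 0.07 (SE 0.04, adjusted p = 0.326).

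Igfbp3 and Igfbp4 were higher in all 3 insulin arrays than in all 3 control arrays at hour 8, as 11.1% of probe sets did not overlap at that hour. Igfbp3 read 5.45, 5.61 and 5.63 with insulin and 5.19, 5.21 and 5.42 without, and the difference of 0.29 (SE 0.12, adjusted p = 0.434) was the only one at a single hour that came under 0.05 before adjustment, by limma's test. Igfbp4, an inhibitor of IGF action that the protease PAPPA cleaves, read 10.22, 9.90 and 10.15 with insulin and 9.55, 9.78 and 9.88 without. No gene of the 9 passed at any single hour, where 0% of all probe sets were called at hours 1 to 3, 0.0501% at hour 4, 0.351% at hour 5, 0.332% at hour 6, 0.269% at hour 7 and 0.72% at hour 8.

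The letters of Igfbp4 ran apart over the whole course. Its difference averaged 0.38, -0.42 and -0.05 for a, b and c, and the fit over all arrays was -0.04 (SE 0.08, adjusted p = 0.822). Without letter b up to hour 5 it was 0.11 (SE 0.07), which did not pass, so the sign rested on those arrays. From hours 1 and 2 to hours 5 to 8 the difference moved up in each letter. It went from 0.02 to 0.56 in letter a, from -0.63 to -0.22 in letter b and from -0.20 to 0.03 in letter c. In letter b it was already -0.58 at time 0, before insulin, and -0.63 over hours 1 to 5. The change in difference from hours 1 and 2 to hours 5 to 8 was 0.39 (SE 0.20, adjusted p = 0.351), and none of the 9 genes passed that test, against 1.84% of all probe sets. None passed over hours 1 and 2, as no probe set on the array did, although 2079 had an unadjusted p under 0.05, nor in the F test over the 8 hours, which called 2.42%.

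**Figure D3:**
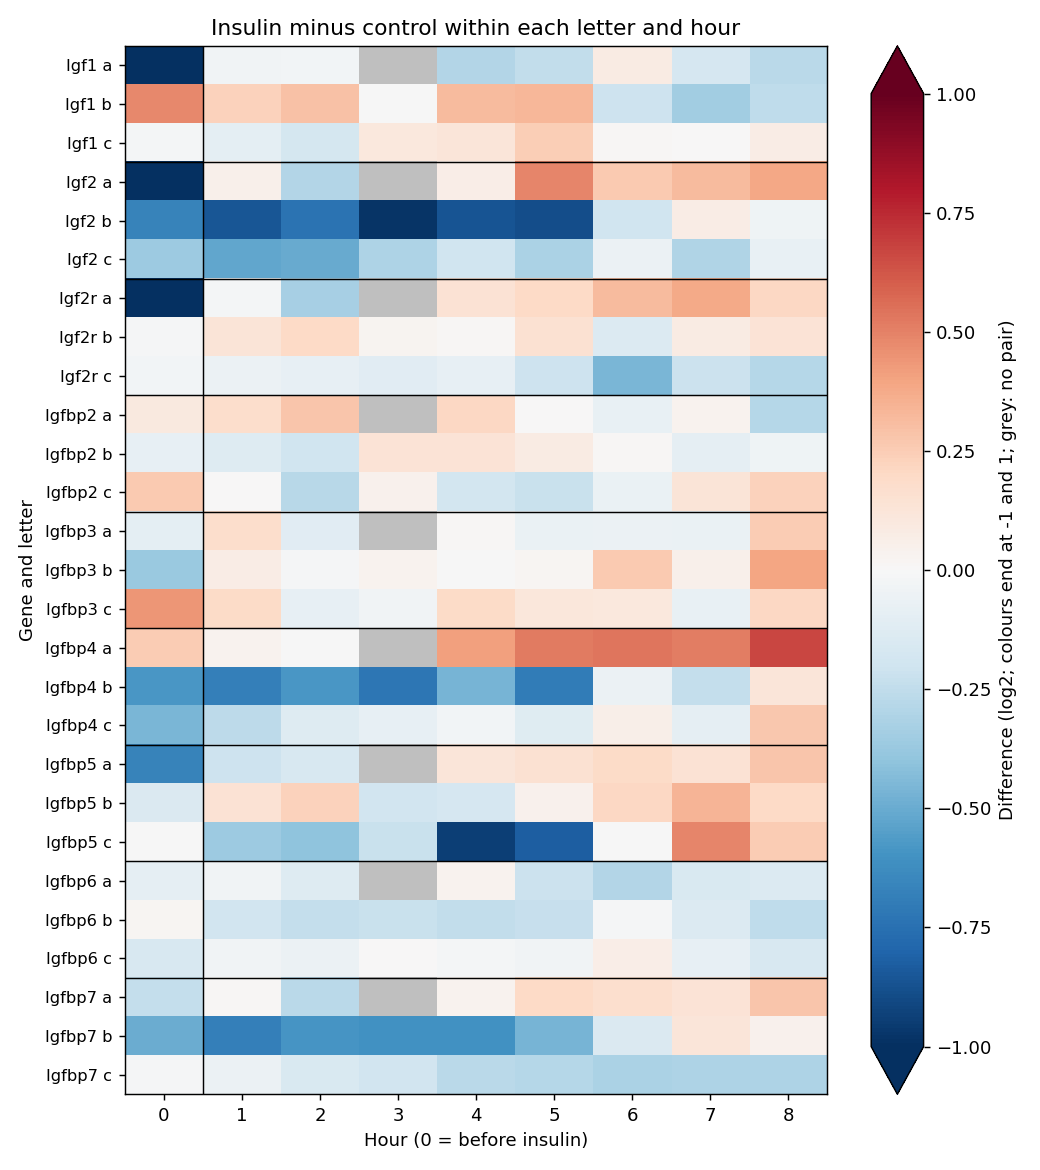
Insulin minus control difference in level (log2) for each gene and letter (vertical axis) at each hour (horizontal axis, with time 0 before insulin left of the line), red above 0 and blue below, with colours that end at -1 and 1 and grey where the insulin array of letter a at hour 3 is not in the table. Letter b is blue from time 0 to hour 5 in Igf2, Igfbp4 and Igfbp7, and Igfbp6 is below 0 in 20 of 23 pairs after time 0.

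For each of the 9 genes the means of the letters lay further apart than the means of the cultures. Over hours 1 to 8 and both cultures, Igfbp5 had a mean of 8.97 on the 15 arrays of letter a (SD 0.26), 8.67 on the 16 of letter b (SD 0.20) and 6.84 on the 16 of letter c (SD 0.38), a factor of 4.37 between the ends. Igf2 had 12.44, 11.09 and 10.98, a factor of 2.76. Igf2r and Igf1 were likewise highest in letter a, by factors of 1.99 and 1.85 over the lowest letter. The 5 other genes differed between letters by factors of 1.11 to 1.30.

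When the sum of squares over the 53 arrays was split in the order letter, hour, culture and the interactions of culture, letter took 89.9% for Igfbp5, 75.3% for Igf2r, 74.5% for Igf2 and 70.7% for Igf1, against a median of 26.4% over all tested probe sets. The letter share of Igfbp5 was at the 99.4th percentile of all tested probe sets. Culture took 20.4% for Igfbp6 and 16.7% for Igfbp7, against a median of 2.63%, and at most 4.8% for the other 7 genes. Igfbp4 differed from the rest in that the interaction of culture with letter took 35.1%. Igfbp2 and Igfbp3 left 65.7% and 53.7% unaccounted for. These shares are descriptions and carry no test.

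**Figure D4:**
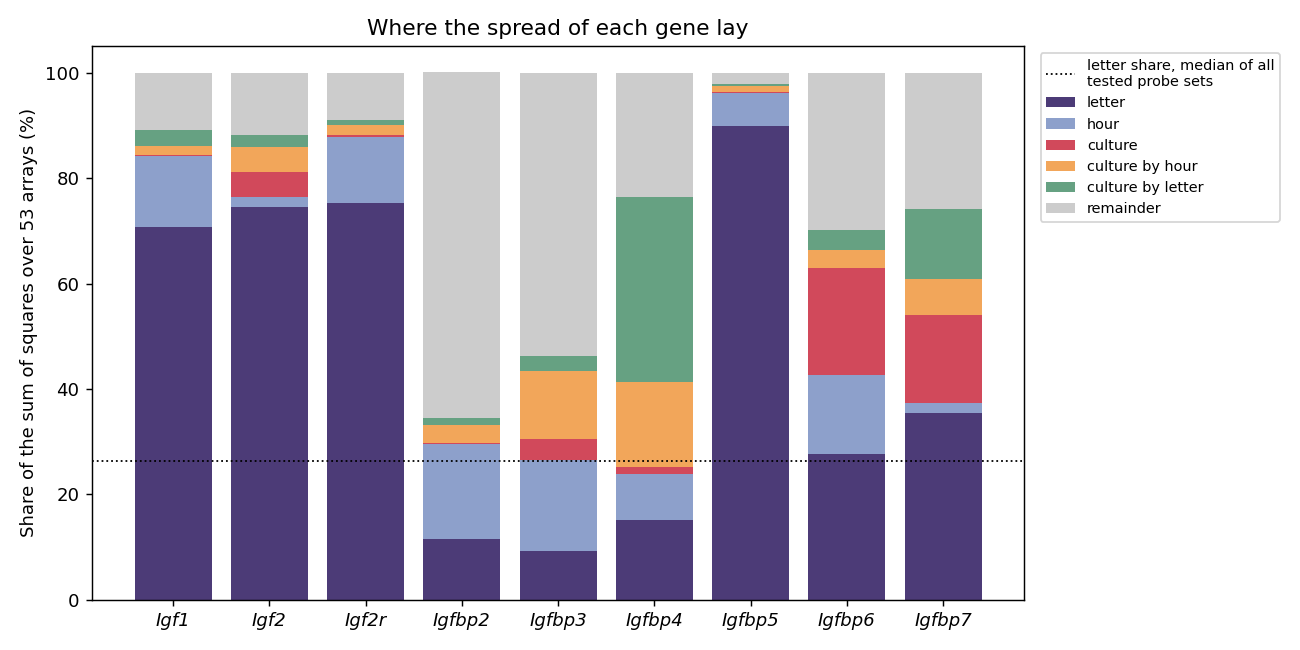
Share (%) of each gene's sum of squares over 53 arrays that was taken by letter, hour, culture, the interactions of culture with hour and with letter, and the remainder, added in that order, with a dotted line at the median letter share of all tested probe sets (26.4%). Letter filled most of the bars of Igf1, Igf2, Igf2r and Igfbp5, and culture had its tallest segments in Igfbp6 and Igfbp7.

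Over time the control culture stayed without insulin and serum, and from time 0 to hours 5 to 8 none of the 9 genes passed the test without a block, against 6.48% of all probe sets. With letter as a block 3 rose, where 11.4% of all probe sets rose: Igfbp5 by 0.47 (adjusted p = 0.00444), Igf1 by 0.37 (adjusted p = 0.0375) and Igfbp6 by 0.17 (adjusted p = 0.0295). Each rose in all 3 letters, Igfbp5 by 0.18, 0.36 and 0.88, Igf1 by 0.18, 0.58 and 0.36, and Igfbp6 by 0.20, 0.17 and 0.13. The rise of Igfbp5 was that of its brightest probe set, at 0.47 (SE 0.72) without a block. In that fit its other tested probe sets gave -0.004 to 0.09 (SE 0.13 to 0.52). The second tested probe set of Igf1 gave 0.41 (SE 0.37) there and that of Igfbp6 0.15 (SE 0.09). None of these passed. Without letter b from time 0 to hour 5, and with the block, Igfbp5 alone passed, at 0.53 (adjusted p = 0.0200, 7.15% of all probe sets higher). With 1 mean per letter and period and no block, none of the 9 passed, the adjusted p being 0.902 for Igfbp5, 0.808 for Igf1 and 0.573 for Igfbp6. No probe set on the array passed in that fit, although 2358 had an unadjusted p under 0.05 in limma.

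In the insulin culture none passed without a block (1.46% of all probe sets did), and with it 4 rose from time 0 to hours 5 to 8, where 4.26% of all probe sets rose. They were Igfbp5 by 0.87, Igf2 by 0.70, Igf2r by 0.69 and Igf1 by 0.56 (adjusted p = 3.62e-06, 0.0187, 0.00011 and 0.0036). The array of letter a at time 0 that stood apart decides part of this. In letter a Igf2 lay 2.06 above that array, whereas letters b and c gave -0.08 and 0.11. Without that array, and with the block, Igfbp5 was higher by 0.80 (adjusted p = 0.000376) and Igf2r by 0.34 (adjusted p = 0.0377), and Igf1 and Igf2 did not pass, while 3.23% of all probe sets rose. Time 0 then rests on letters b and c, in which Igfbp5 was higher by 0.70 and 0.86 and Igf2r by 0.32 and 0.23. With 1 mean per letter and period and no block, none of the 9 passed in the insulin culture (adjusted p = 1.00 for Igfbp5), nor did any probe set, although 1239 had an unadjusted p under 0.05 in limma. Without a block, the insulin minus control difference of Igfbp5 over hours 5 to 8 was 0.12 (SE 0.46). Over hours 1 to 8 relative to time 0 it was 0.18 (SE 0.97), or 0.53 (SE 1.08) without the letter a array at time 0. With letter as a block it was 0.12 (SE 0.08) over hours 5 to 8 and 0.23 (SE 0.16) relative to time 0. None of these passed.

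The other genes of the IGF pathway were read from 5 lists that hold 24 genes. Of these 22 had a probe set, 17 were bright enough to be tested, and over hours 1 to 8 none was higher, 3 were lower and 14 did not pass, with a median difference of -0.07 against 0.004 over all tested probe sets, of which 6.63% were lower. The 3 were Irs2, Stc1 and Nagpa. Irs2, an adaptor below the insulin and IGF1 receptors, had the largest difference at -0.44 (SE 0.04, adjusted p = 8.41e-10), 1 of 6 tested receptors and adaptors. Igf1r, the receptor that both ligands signal through, differed by -0.06 (SE 0.04, adjusted p = 0.311) and Insr, the insulin receptor, by -0.11 (SE 0.05, adjusted p = 0.215).

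Stc1, a stanniocalcin that inhibits the IGFBP4 protease PAPPA, was lower, at -0.42 for the whole course (SE 0.12, adjusted p = 0.0126) and -0.70 for its last 4 hours (SE 0.16, adjusted p = 0.00283). The difference of Stc1 was already -0.37 (SE 0.32) at time 0, before insulin, and it was 0.15 (SE 0.23) over hours 1 and 2. Neither passed. Pappa had no probe set, and values of Stc1 by letter or with a block are not given here. In the control culture Stc1 rose from time 0 to hours 5 to 8 by 1.36 (SE 0.25, adjusted p = 0.000503). Its relative Stc2 differed by 0.02 (SE 0.07), and Htra1, a secreted serine protease with an IGFBP-type domain, by -0.07 (SE 0.05). Nagpa, which uncovers the mannose 6-phosphate tag that IGF2R recognises, was lower, at -0.09 (SE 0.03, adjusted p = 0.0398). The other 3 genes of that sorting route did not pass. The liver carriers Igfbp1 and Igfals, with Igfbpl1, Grb14 and Igf2bp3, lay under the tested level.

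The genes with the pattern most like that of each of the 9, by Pearson's correlation over the 18 group means among 11568 genes, are given as a description. Groups share their letters, so the means of a gene with large differences between letters move with the absent array at hour 3 and the array that stood apart at time 0. Igfbp7 was most like Btbd2 (0.98) and Palm (0.97), Igf2 most like Col1a1 (0.96), a collagen chain of fibroblasts, and Plagl1 (0.96). Igf2r was most like Fndc1 (0.96) and Sulf2 (0.96), and Sulf2, a sulfatase of the cell surface, was also first for Igf1 (0.95), before Rbm24 (0.93).

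Among the other binding proteins, Igfbp6 was most like Fahd2a (0.92) and Slc31a2 (0.91), whose own insulin minus control differences were -0.13 (adjusted p = 0.0365) and -0.29 (adjusted p = 0.00164). Igfbp5 was most like Abcd4 (0.95) and Fam53b (0.94), and Igfbp4 most like Pfkl (0.93) and Mrpl38 (0.92). Igfbp3 was most like Shc3 (0.88) and Snhg11 (0.78), and Igfbp2 most like Lrrc23 (0.77) and Ptpn7 (0.73).

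Among the 9 genes themselves, over the 53 arrays, the closest pairs were Igf1 with Igf2r (0.93) and Igf2 with Igf2r (0.87). After the mean of each letter was taken out these were 0.76 and 0.47. The insulin array of letter a at time 0, low in Igf1, Igf2 and Igf2r, was kept, and its part in these values was not tested. The pair of Igf2 and Igfbp7 went from 0.80 to 0.83, and that of Igfbp4 and Igfbp7 from 0.27 to 0.68. Each of Igf1, Igf2, Igf2r, Igfbp4 and Igfbp7 shifted between hours 5 and 6 in the control culture of letter b, with Igf1 and Igf2r going up and the rest down. In the control culture of letter c Igf2r also went up, and Igf2 and Igfbp4 went down by less than in letter b. Igfbp2 and Igfbp5 are neighbours on chromosome 9, and their levels had a correlation of -0.08 over the arrays and 0.17 within letters. Arrays share letters and cultures, so these values carry no p.

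Col1a1, the fibroblast marker most like Igf2, differed between cultures by -0.20 (SE 0.19) over hours 1 to 8 and by -0.69 (SE 0.54) at time 0. None of the 5 fibroblast markers, 10 myotube markers and 4 markers of proliferating cells passed over hours 1 to 8. The 5 fibroblast markers were all below 0 in that window, with a median of -0.17. The 10 myotube markers, except Myog (0.01), were below 0 too, with a median of -0.10. The 4 markers of proliferating cells had a median of 0.05. Over hours 5 to 8 Pdgfra, a receptor for platelet-derived growth factor, was lower, at -0.32 (SE 0.09, adjusted p = 0.0158). It was the only one of these markers that passed there, against 9.35% of all probe sets. Summed on the linear scale, the fibroblast markers ranged from 7745 to 14980 (median 10940) in control arrays and from 7318 to 15920 (median 8400) in insulin arrays, and the myotube markers from 32980 to 68150 and from 32500 to 66920. Whether the cell types in the plates had a part in the levels of Igf2, Igfbp6 and Igfbp7 was not tested.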

How the data were processed

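Cells were hybridised to Affymetrix rat expression arrays. The authors subtracted background, applied quantile normalization and summarised probes with RMA (version not given in the sources used here), and deposited log2 values. An insulin array of letter a at hour 3 was not analysed here. Where labels of the last pool disagree, 440 min was taken. Quantile normalization would hide a shift shared by most genes.

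The probe sets with the highest mean were tested, 70.7% of all without manufacturer controls and as many as the study kept by detection calls that were not used here. The lowest mean among them was 5.04. In R 4.3.3, limma 3.58.1 fitted a model of 18 group means, with a variance prior that followed the mean level, Benjamini-Hochberg adjustment over all tested probe sets and a threshold of 0.05, two-sided. It was tested on simulated data with independent noise on each array and no effect of letter. Such data cannot show how the fit behaves where arrays share a letter, as they do here. Precision is limited by the number of arrays and of letters. Of the probe sets, 20832 had 1 symbol, 436 several and 9831 none, and 0 symbols were updated.

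Pairing by letter was taken from the labels, whose letters were taken to name the different days of the experiment. The deviations of the 26 pairs of arrays of the same letter and hour correlated at 0.207 to 0.787. The members, lists, motifs and tests were chosen with earlier results of these data known. Named beside the 9 genes were, by rule, up to 3 passed genes of each pathway list, Igf1r, Insr and Igfbp1, and the 2 genes most like each member. Others were named after their values were seen. Alternatives were blocks by letter or pair, a mean per letter, omission of each letter or of arrays that stood apart, a stricter filter of 15000 probe sets, and re-centred arrays.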

Additional observations from a re-analysis of the deposited data

How the results depend on the processing

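The number of the 9 genes that were lower over hours 1 to 8 was 1. It was 3 with letter as a replicate block and 3 with pairs of letter and hour as a replicate block, and 2 with 15000 probe sets tested, where Igfbp7 joined (-0.20, adjusted p = 0.0425) and 9.33% of all were lower. It was 0 with 1 mean per letter (-0.12 for Igfbp6), where no probe set on the array passed and 555 had an unadjusted p under 0.05 in limma, 0 when letter b was left out up to hour 5 (-0.08, with 2.85% of all lower), and, among alternatives chosen after seeing the data, 0 with 1 difference per letter tested against 0 (-0.12, adjusted p = 0.302) and 0 when, besides the block, letter b was left out up to hour 5. With 1 difference per letter, 0.692% of all probe sets passed. With arrays centred again on their median it stayed at 1, but Igfbp7 (-0.18, adjusted p = 0.0489) took the place of Igfbp6 (-0.10, adjusted p = 0.0535), with 5.31% of all lower.

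Leaving out each letter in turn gave 0 to 4 for hours 1 to 8, where without letter a Igf2 (-0.42), Igfbp4 (-0.23), Igfbp6 and Igfbp7 (-0.30) were lower, as were 10.6% of all probe sets, and without letter b none was, against 2.14%. Without letter c Igfbp6 alone was, against 3.2%. It gave 0 to 1 for the F test over hours 1 to 8 and for hours 1 and 2 (Igf2 in both, without letter a, -0.65 over hours 1 and 2, where the F test called 3.57% of all and 1.39% were lower), 0 to 1 for hours 5 to 8 (Igfbp6, without letter c, -0.18, with 3.6% lower), 0 to 2 for the control course (Igf1 0.47 and Igf2r 0.37, without letter a, with 3.78% higher) and 0 to 1 for the insulin course (Igfbp5 0.87, without letter c, with 0.0774% higher).

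For hours 5 to 8 the count of 0 became 1 with letter as a block, with pairs as a block (12.1% of all lower), and with the block when letter b was left out up to hour 5 (Igfbp6 each time). For the control course it became 3 with letter as a block and 1 when letter b was also left out up to hour 5. For the insulin course it became 4 with the block, 4 when letter b was also left out up to hour 5 (Igf2 1.07, Igfbp5 0.95, Igf2r 0.87, Igf1 0.82, with 4.33% of all higher), and 2 when instead the time 0 array of letter a was left out. The block changed no other call. Over all alternatives, 988 values kept their side of the threshold, 32 passed newly, 6 lost the call, and none of those called changed sign.

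There are 3 letters. In the fit without a block the 95% interval of Igfbp6 ran from -0.19 to -0.05, and those of Igf1, Igf2, Igf2r and Igfbp5 were wider. Igfbp3 was read near the lowest level tested. One further probe set each of Igf1, Igf2 and Igfbp3 lay under that level and was not tested.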
